A study of Mus musculus with 12 samples.

Results

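Kinesins and cytoplasmic dyneins are the motors that move cargo along microtubules, and 56 of their genes were followed in the hippocampus of *Dek* cKO and WT mice. The members were all protein-coding genes of the deposited table whose symbol in the GENCODE M21 annotation begins with Kif and a digit, with Kifc, with Dync or with Dynl, and whose value was above 0 in at least 1 library. The rule took 57 rows of 26409, and 1 of them, *Kif2b*, was listed at 0 in all libraries and was left out. No measured value decided which genes were kept beyond that, but members and classes were chosen with earlier results of these data known. The members were grouped by textbook role into 20 axonal and dendritic kinesins, 14 dynein subunits, 13 mitotic kinesins and 9 others, mostly kinesins of cilia and epithelia. The last group also holds *Kif1bp*, which the symbol took in although its product is not a motor but a protein that keeps several kinesins off the microtubule.

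Bulk RNA-seq of dissected hippocampus was available for 12 libraries, 3 each from female WT, female cKO, male WT and male cKO mice. DEK is a chromatin-binding protein, and the cKO mice carried a constitutive deletion made by crossing *Dek* fl/fl mice with CMV-Cre mice on a C57Bl/6 background, after which the Cre transgene was bred out and the line kept by mating heterozygotes. The CMV promoter acts in all tissues, so the deletion was not limited to neurons or to the hippocampus. Mice of all 4 groups were 6 to 12 months old, and the tissue was taken after behavioural testing. The question for the motors was whether their transcripts differed between the genotypes, in both sexes together or in 1 of them. Values are in TPM, the abundance of transcripts scaled to a fixed total per library, which are corrected for transcript length, so that levels of different genes can be set side by side, but which keep no read depth.

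Kinesins walk mostly towards the plus end of microtubules, which in axons points away from the cell body, while cytoplasmic dynein 1 carries cargo back. Kinesin-1, kinesin-2 and kinesin-3 motors move vesicles, organelles and receptors in axons, dendrites and cilia, and a separate set of kinesins builds the spindle and divides the cell. Neurons do not divide, and in the adult hippocampus dividing precursors are few. Dynein is a large complex in which 1 heavy chain gene supplies the motor and the intermediate, light intermediate and light chains hold cargo and adaptors, and cytoplasmic dynein 2 works inside cilia.

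*Dek* itself was at 44.2 to 51.9 TPM in the 6 WT libraries and at 5.55 to 9.25 TPM in the 6 cKO libraries, so every library matched its genotype label. Y-linked transcripts went against the sex label in 2 libraries, female cKO 3 and male cKO 1. Most counts and class medians that are split by sex, and some fold changes of named members, are also given without these 2 libraries. The names of the female WT libraries carry the prefix C57 and all others the prefix CMV, so in females genotype and naming cannot be told apart. The libraries listed 18104 to 18719 genes above 0. Sums over 10 neuron markers were 5744 to 6574 TPM, whereas sums over 10 choroid plexus markers ranged from 49.2 to 4527 TPM over the libraries, and what part that neighbouring tissue has in the results was not tested. In bulk tissue, fewer cells of a type and less RNA per cell cannot be told apart, and the labels do not say that each library is a separate animal, so p-values measure the spread between libraries.

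Together the members held 0.508 to 0.555% of the listed TPM of a library. The 20 axonal and dendritic kinesins supplied 46.9% of the members' TPM and the 14 dynein subunits 49.0%, whereas the 13 mitotic kinesins supplied 0.223%. Of the members, 26 reached a mean of 20 TPM, and they were 14 axonal kinesins, 10 dynein subunits and 2 of the other group. The same 26 varied little between libraries, with a coefficient of variation over all 12 of 4.21 to 22.7% and a median of 7.0%. The mitotic kinesins had a median of 40.1%.

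**Figure D1:**
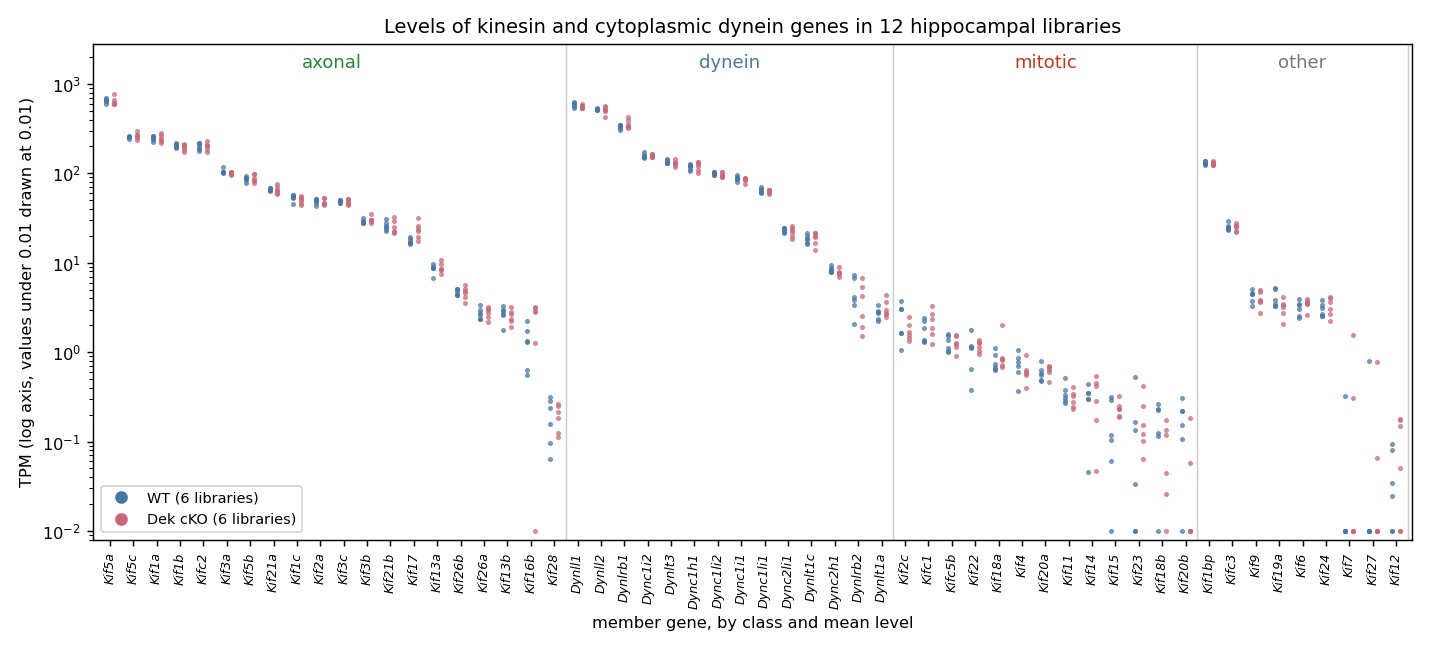
TPM of the 56 members (log axis, values under 0.01 drawn at 0.01) in 6 WT and 6 *Dek* cKO libraries, ordered by class and by mean level. Axonal kinesins and dynein subunits reach 646 and 572 TPM while no mitotic kinesin has a mean above 2.05 TPM, and the points of both genotypes overlap for every member.

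Among the axonal kinesins the kinesin-1 heavy chain *Kif5a*, which carries vesicles, mitochondria and neurofilament cargo towards axon tips, stood highest at a mean of 646 TPM. It was followed by the neuron-enriched kinesin-1 heavy chain *Kif5c* at 258 TPM and by the synaptic vesicle precursor motor *Kif1a* at 248 TPM. *Kif1b*, a kinesin-3 of synaptic vesicle precursors and mitochondria, and *Kifc2*, a neuronal kinesin with its motor at the C-terminus, had means of 200.5 and 200.4 TPM, and *Kif3a*, the shared subunit of kinesin-2, of 103 TPM. These 6 genes made up the top of the class in both genotypes. The class had a median of 48.4 TPM and reached down to 0.192 TPM for *Kif28*, named here after its values were seen as the lowest of the class.

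Within the kinesin-1 heavy chains the balance was close to the same in both genotypes. *Kif5a* held 65.5% ± 1.09 of their summed TPM in WT and 64.7% ± 2.39 in cKO libraries (SD, n = 6 each). *Kif5c* held 25.7% ± 1.32 and 26.4% ± 2.09, and *Kif5b*, the heavy chain found in most cell types, 8.77% ± 0.308 and 8.91% ± 0.534. The ranges of the genotypes overlapped for all 3 shares, which were not tested. *Kif5a* and *Kif5c* coding sequences were 67.3% identical in an alignment of their longest GENCODE M21 coding sequences, and fewer than 5% of the 31-base words of either gene's transcripts occur in transcripts of another gene.

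Of the dynein subunits the LC8 light chains *Dynll1* and *Dynll2*, which also serve many complexes besides dynein, were the highest at means of 572 and 517 TPM. The roadblock light chain *Dynlrb1* followed at 348 TPM, then the intermediate chain *Dync1i2* at 158 TPM, the Tctex light chain *Dynlt3* at 133 TPM and the heavy chain *Dync1h1*, the motor subunit itself, at 119 TPM. The light chains *Dynll1*, *Dynll2*, *Dynlrb1* and *Dynlt3* thus stood above the heavy chain on the length-corrected scale, while *Dynlt1c*, *Dynlrb2* and *Dynlt1a* lay below it at means of 18.6, 4.15 and 2.94 TPM. *Dynll1* held 52.9% ± 1.43 of LC8 TPM in WT and 52.2% ± 3.33 in cKO libraries (SD, n = 6 each). The neuron-enriched intermediate chain *Dync1i1* held 35.8% ± 1.13 and 35.2% ± 1.52 of intermediate chain TPM, and *Dync1li1* 39.3% ± 1.80 and 39.7% ± 0.972 of light intermediate chain TPM. In all 3 pairs the genotypes overlapped.

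The Tctex light chain copies *Dynlt1a* and *Dynlt1c* need a separate word, because their values cannot be taken as those of single genes. Their coding sequences of 342 bases were identical, with 0 mismatches, and the first 300 bases of the shared sequence, from the start codon, are printed here because reads from it cannot be assigned to 1 copy:
Dynlt1a and Dynlt1c: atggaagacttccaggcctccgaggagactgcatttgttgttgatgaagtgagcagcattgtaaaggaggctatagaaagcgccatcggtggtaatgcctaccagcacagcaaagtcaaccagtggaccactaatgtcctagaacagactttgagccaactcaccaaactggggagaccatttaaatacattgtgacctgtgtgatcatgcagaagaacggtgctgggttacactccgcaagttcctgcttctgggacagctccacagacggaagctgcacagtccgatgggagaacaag
Of the 31-base words in their GENCODE M21 transcripts, 86.5% for *Dynlt1c* and 71.0% for *Dynlt1a* also occur in transcripts of another gene, most often of *Dynlt1f*, which was not analysed here. The deposited values were 18.6 TPM on average for *Dynlt1c* and 2.94 TPM for *Dynlt1a*. *Dynlt1a* ranged from 2.26 to 3.36 TPM with a median of 2.78 in WT and from 2.47 to 4.34 with a median of 2.87 in cKO libraries, and *Dynlt1c* from 16.1 to 21.3 with a median of 18.5 and from 13.8 to 21.6 with a median of 19.6. Their sum was 21.2 ± 1.73 TPM in WT and 21.9 ± 2.78 TPM in cKO libraries (SD, n = 6 each), with overlapping ranges.

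The mitotic kinesins were all low. The highest was *Kif2c*, a depolymerase at centromeres, at a mean of 2.05 TPM, followed by the minus-end spindle motor *Kifc1* at 1.96 TPM, its close relative *Kifc5b* at 1.27 TPM and the DNA-binding *Kif22* at 1.11 TPM. The other 9 of 13 had means under 1 TPM, and 4 were listed at 0 in at least 1 library. The *Kifc1* and *Kifc5b* coding sequences were 98.1% identical, and 57.2% and 51.6% of the 31-base words of their transcripts occur in other genes, so the split between them is uncertain too. *Kif2c* was at 1.07 to 3.72 TPM in WT and 1.34 to 2.46 TPM in cKO libraries, and *Kif22* at 0.378 to 1.75 and 0.962 to 1.36 TPM. Neither pair of ranges was apart.

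Promoters of cell-cycle genes often carry a CCAAT box and a cell cycle genes homology region (CHR), and the 250 bases before the RefSeq start were searched for both (CCAAT and TTTGAA, either strand, GRCm38.p6). RefSeq gave 48 promoters for 42 members and none for 14. CHR letters stood in 5 of 12 mitotic kinesin promoters (41.7%), in 2 of 17 axonal ones (11.8%), in 0 of 12 of dynein subunits and in 16.0% of all 32851 promoters. CCAAT letters stood in 8 of 12 (66.7%), 5 of 17 (29.4%) and 3 of 12 (25%), against 33.8% of all. The promoter of *Kif11*, the motor that separates spindle poles, chosen for print because it holds both elements close together and near the start, is given from its 5′ end with the CCAAT box (45 bases before the start) and the CHR (19 bases before the start) in capitals, both read on the other strand, at chr19:37376132-37376381 on the plus strand:
Kif11: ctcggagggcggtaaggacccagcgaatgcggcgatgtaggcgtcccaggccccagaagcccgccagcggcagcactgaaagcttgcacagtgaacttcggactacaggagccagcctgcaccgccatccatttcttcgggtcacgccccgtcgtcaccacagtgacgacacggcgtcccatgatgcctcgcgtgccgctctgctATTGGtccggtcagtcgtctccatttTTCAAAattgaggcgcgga
These matches describe letters only, and no test was run on the counts.

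The genotypes were then compared over 6 cKO and 6 WT libraries. A gene was called where limma's Benjamini-Hochberg adjusted p over 18197 genes was under 0.05 and the change exceeded 1.2-fold, and no motor gene met both conditions. Of the 55 members with a mean of at least 0.1 TPM, 0 were called, against 27 of all genes tested, or 0.148%, and the member with the lowest adjusted p, *Kif17*, stood at 0.456. *Kif12*, a kinesin of epithelial cells, was the member below that mean. At an unadjusted p under 0.05 there were 2 members, or 3.64%, while 6.64% of all genes reached it. They were *Kif17*, higher in cKO as were 4.84% of all genes, and *Kif20b*, lower as were 1.8%. The genotypes overlapped in all 55 members, and 0.676% of all genes had genotypes that did not overlap.

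By class the median fold changes lay close to 0. Single mitotic kinesins ranged from −0.93 to 0.59 on the log2 scale, and single members of the other group from −0.33 to 0.66. The median log2 fold change on the log2(TPM + 0.1) scale, cKO over WT, was −0.01 for the axonal kinesins, with 9 of 20 above 0, −0.04 for the dynein subunits, with 4 of 14 above 0, 0.03 for the mitotic kinesins, with 8 of 13 above 0, and 0.05 for the others, with 4 of 8 above 0. Over all genes it was 0.02, with 55.8% above 0. Summed TPM gave the same picture at the level of the class. Axonal kinesins summed to 2059.7 ± 38.0 TPM in WT and 2052 ± 137 TPM in cKO libraries, dynein subunits to 2165 ± 47.3 and 2139 ± 30.7 TPM, and mitotic kinesins to 9.79 ± 2.07 and 9.75 ± 0.849 TPM (SD, n = 6 each), with overlapping ranges in each class. The cKO libraries were the more spread for the axonal kinesins, from 1889.8 TPM in male cKO 2 to 2283 TPM in female cKO 1, both outside the WT range of 1999.6 to 2101 TPM.

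A missed threshold does not show equal levels, so the size of difference that the data still allow is given. Of the 26 members with a mean of at least 20 TPM, 23 had a 95% interval of the fold change that lay wholly within 1.2-fold in either direction, and 25 within 1.5-fold. The half-width of those intervals had a median of 0.13 on the log2 scale. Of the 17 members with means of 1 to 20 TPM, 2 lay within 1.2-fold and 11 within 1.5-fold. Below 1 TPM, where most mitotic kinesins are, 0 of 12 lay within 1.2-fold and 1 within 1.5-fold. For most of those members sizeable differences could thus not be excluded.

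**Figure D2:**
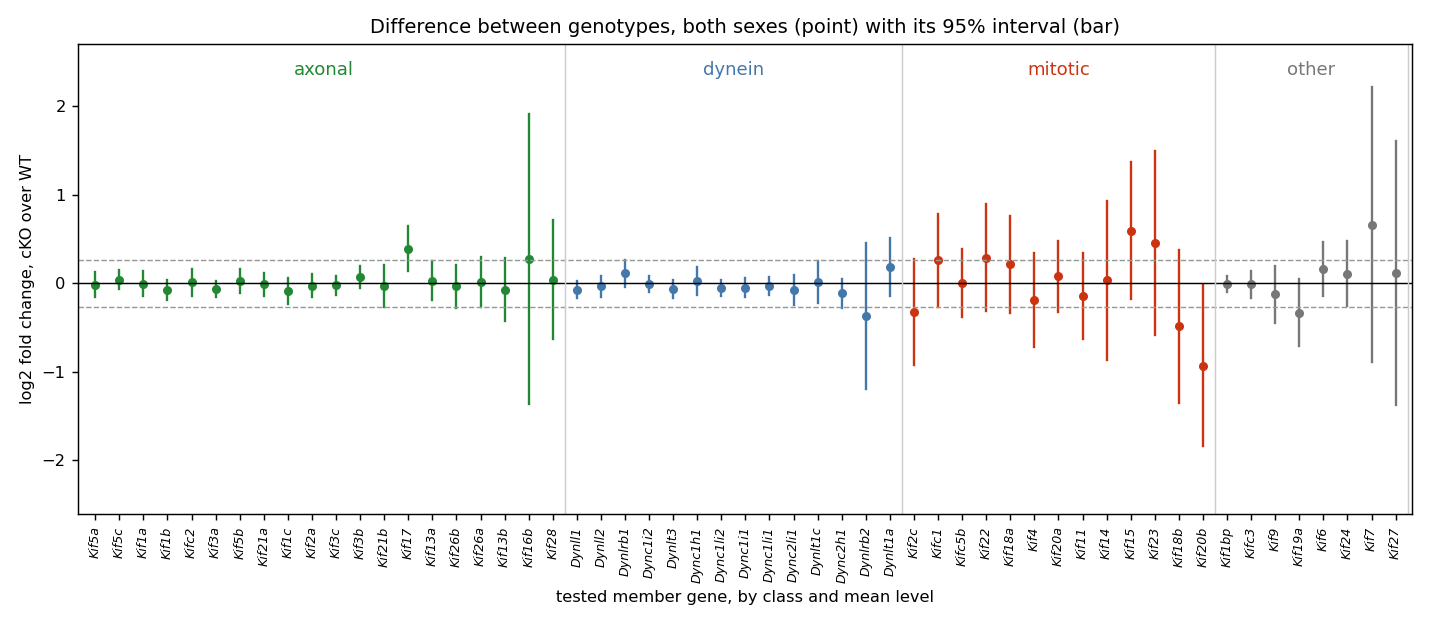
Log2 fold change between genotypes (cKO over WT, 6 libraries each) of the 55 tested members, by class and mean level. Points are limma estimates, bars 95% intervals, and dashed lines mark 1.2-fold: the intervals of 23 of the 26 abundant members stay between the dashed lines, and those of the mitotic kinesins do not.

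The main transport motors illustrate how narrow the intervals were. *Kif5a* ranged from 594 to 692 TPM in WT libraries with a median of 647, and from 591 to 777 with a median of 616 in cKO libraries. Only female cKO 1 stood above the WT range, and the log2 fold change was −0.02 (95% interval −0.16 to 0.12, limma adjusted p = 0.989). *Kif1a* ranged from 223 to 263 TPM with a median of 251 in WT and from 219 to 285 with a median of 243 in cKO libraries, a log2 fold change of 0.00 (−0.14 to 0.13). *Dync1h1* ranged from 105 to 126 TPM with a median of 119.9 in WT and from 101 to 134 with a median of 123 in cKO libraries, a log2 fold change of 0.03 (−0.13 to 0.19). In all of them the cKO libraries reached both lower and higher than the WT libraries.

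For *Kif5c* the log2 fold change was 0.04 (−0.07 to 0.14), with 243 to 260.4 TPM in WT and 234 to 295 TPM in cKO libraries, and for *Kif1b* −0.08 (−0.19 to 0.04), with 193 to 217 and 175 to 215 TPM. The dynein chains *Dynll2*, *Dync1i2* and *Dynlt3* had log2 fold changes of −0.04 (−0.16 to 0.09), −0.01 (−0.10 to 0.08) and −0.07 (−0.17 to 0.04). *Kif1bp* was the steadiest of all members, at 124 to 139 TPM in WT and 123 to 139 TPM in cKO libraries, with a log2 fold change of −0.01 (−0.10 to 0.08). *Kifc3*, a minus-end motor of epithelial junctions, gave −0.01 (−0.17 to 0.14). None of these intervals reached 1.2-fold.

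The 4 most abundant mitotic kinesins had wider intervals. The log2 fold change was −0.32 (−0.92 to 0.27) for *Kif2c*, 0.26 (−0.27 to 0.78) for *Kifc1*, 0.00 (−0.38 to 0.39) for *Kifc5b* and 0.29 (−0.32 to 0.90) for *Kif22*. All 4 intervals held both 0 and a change of 1.2-fold.

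*Kif17*, a homodimeric kinesin-2 that carries NMDA receptor subunits in dendrites and also acts in cilia, had the lowest p of all members. The 6 WT libraries were at 16.3, 16.7, 16.98, 17.2, 18.2 and 19.6 TPM, and the 6 cKO libraries at 17.3, 19.3, 22.4, 23.9, 26.0 and 31.4 TPM. Of the cKO libraries, 4 stood above every WT library, and male cKO 2 and female cKO 2 lay inside the WT range. The means were 17.5 ± 1.22 TPM in WT and 23.4 ± 5.02 TPM in cKO libraries (SD, n = 6 each). The log2 fold change was 0.39 (SE 0.12, 95% interval 0.13 to 0.65), which is 31.2% more, with an unadjusted p of 0.00579 and an adjusted p of 0.456 in limma, so *Kif17* did not pass. It was 0.40 in females and 0.39 in males, with 1 library deciding much of the latter: without male cKO 3, at 31.4 TPM, the male value was 0.16. Without the libraries of conflicting sex it was 0.30 in females and 0.41 in males. In the comparison of both sexes it ranged from 0.30 to 0.47 when single libraries were left out, and the adjusted p was never below 0.162. Without the female WT libraries, which alone carry the other name prefix, it was 0.38.

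*Kif17* lies at chr4:138250435-138301967 on the plus strand (GRCm38, GENCODE M21). Its promoter is shown beside that of *Kif5c* because the pair were the only ones among the 42 members with a promoter that held the full cAMP response element (CRE, TGACGTCA, a palindrome), which occurs in 1.55% of all promoters of this length. The RefSeq start of *Kif17* used here lies inside the GENCODE M21 gene, downstream of the first start annotated there, so the printed bases belong to an internal start of that gene model. The element is in capitals, 86 bases before the start of *Kif17* (chr4:138262001-138262250, plus strand) and 26 bases before that of *Kif5c* (chr2:49619036-49619285, plus strand), both in GRCm38.p6:
Kif17: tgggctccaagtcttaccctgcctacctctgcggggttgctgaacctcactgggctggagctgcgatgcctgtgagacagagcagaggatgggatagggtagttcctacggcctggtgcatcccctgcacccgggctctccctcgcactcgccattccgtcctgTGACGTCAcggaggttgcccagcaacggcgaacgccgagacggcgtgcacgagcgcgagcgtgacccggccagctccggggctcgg
Kif5c: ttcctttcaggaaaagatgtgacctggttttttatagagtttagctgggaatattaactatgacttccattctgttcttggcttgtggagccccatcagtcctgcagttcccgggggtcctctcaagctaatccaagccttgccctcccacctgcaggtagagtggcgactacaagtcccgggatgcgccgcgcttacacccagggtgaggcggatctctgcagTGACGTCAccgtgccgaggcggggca
The members that share the element had log2 fold changes of 0.39 and 0.04 between genotypes. The match says nothing of whether a factor binds there.

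The other members with the lowest p values were mostly low or changed little. *Kif20b*, a motor of cytokinesis, was at 0 to 0.305 TPM with a median of 0.186 in WT libraries, and was listed at 0 in 4 of the 6 cKO libraries, with the others at 0.0583 and 0.186 TPM. Since 1 WT library was also listed at 0, the genotypes overlapped, and at such levels a TPM of 0 need not mean that the transcript was absent. The log2 fold change was −0.93 (SE 0.42, limma unadjusted p = 0.0464, adjusted p = 0.746), and it shrank to −0.16 with a pseudocount of 1.

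*Kif15*, a spindle motor that acts beside *Kif11*, was on the opposite side, at 0 to 0.314 TPM with a median of 0.110 in WT and 0.189 to 0.320 TPM with a median of 0.231 in cKO libraries. Its log2 fold change was 0.59 (SE 0.36, adjusted p = 0.852). *Kif19a*, which shortens motile cilia, ranged from 3.28 to 5.21 TPM with a median of 3.63 in WT and from 2.09 to 4.17 with a median of 3.26 in cKO libraries, a log2 fold change of −0.33 (SE 0.17, adjusted p = 0.804). *Dync2h1*, the dynein heavy chain of cilia, ranged from 7.88 to 9.35 TPM and from 6.89 to 8.86 TPM, with a log2 fold change of −0.11 (SE 0.08, adjusted p = 0.864). So the mitotic kinesins with the lowest p values lay on opposite sides of 0, and no member of cilia or spindle passed.

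The remaining members of that group were abundant and differed by little. *Dynll1* ranged from 539 to 625 TPM with a median of 586 in WT and from 535 to 598 with a median of 553 in cKO libraries, a log2 fold change of −0.07 (−0.17 to 0.02). *Kif3a* ranged from 100.5 to 118 TPM and from 95.7 to 105 TPM, with a log2 fold change of −0.07 (−0.16 to 0.02), and it was −0.04 without male WT 2, the library at 118 TPM. *Dynlrb1* ranged from 307 to 347 TPM in WT and from 319 to 430.5 TPM in cKO libraries, a log2 fold change of 0.11 (−0.04 to 0.27), and it was 0.06 without female cKO 3, the library at 430.5 TPM. Each of these adjusted p values was above 0.85 in limma.

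Within a sex, with 3 libraries against 3, no member passed either (limma, 4 groups in 1 fit). In females 0 of 55 members were called, against 0.0165% of all genes, and 2 had an unadjusted p under 0.05, against 5.79% of all genes. In males the counts were again 0, against 0.0165%, and 2, against 5.45%. The genotypes did not overlap in 7 members in females, where 12% of all genes did the same, and in 4 members in males, where 9.75% did. The difference between the sexes in the genotype effect, tested as an interaction, called 0 members and 0.0% of all genes, and 2 members had an unadjusted p under 0.05, against 4.23% of all genes.

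These counts moved when the libraries of conflicting sex were left out, which leaves 2 cKO libraries in each sex and 54 members tested. Again 0 members were called in females, in males or for the interaction, and the lowest adjusted p of a member was 0.334 in limma, for the interaction of *Kifc2*. At an unadjusted p under 0.05 there were 4 members in females (7.41%, against 8.56% of all genes), 5 in males (9.26%, against 8.86%) and 9 for the interaction (16.7%, against 8.8%). The 9, named after their values were seen, were *Kifc2*, *Kif16b*, *Kif1a*, *Kif1b*, *Kifc1*, *Dynlt1c*, *Dynlrb1*, *Dync1h1* and *Dync1i1*. Genotypes did not overlap in 16 members in females (29.6%, against 28% of all genes) and in 14 in males (25.9%, against 21.4%).

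*Kifc2*, at chr15:76659858-76668196 (GRCm38), was the member with the lowest p for a difference between the sexes. Female WT libraries were at 179, 190.0 and 187 TPM and female cKO libraries at 232, 206 and 206 TPM. Male WT libraries were at 207, 217 and 216 TPM and male cKO libraries at 186, 205 and 174 TPM. By sex label, every cKO library lay above every WT library in females and below in males, a pattern found in 0.379% of all genes tested. Male cKO 1, whose Y-linked transcripts go against its label, stood at 186 TPM, inside the female WT range. The separation in females thus depends on the label of that library. The log2 fold change was 0.21 in females (SE 0.07, unadjusted p = 0.0114, adjusted p = 0.770) and −0.19 in males (SE 0.07, unadjusted p = 0.0210, adjusted p = 0.880). The interaction was −0.39 (95% interval −0.61 to −0.18, unadjusted p = 0.00189), with an adjusted p of 0.966 in limma, so it did not pass over all genes. Without female cKO 3 and male cKO 1 it was −0.42. WT females were below WT males, and the female WT libraries are the ones with the other name prefix.

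*Dynll1* was the other member with a low p in females, where WT libraries were at 625, 574 and 598 TPM and cKO libraries at 542, 535 and 536 TPM. All 3 cKO libraries lay below the WT libraries, with a log2 fold change of −0.15 (SE 0.06, unadjusted p = 0.0197, adjusted p = 0.837 in limma), whereas in males the ranges overlapped and it was 0.01. Without female cKO 3 it was also −0.15 in females. *Dync1i1* had a low p in males, with WT libraries at 90.5, 96.1 and 89.9 TPM and cKO libraries at 85.8, 85.6 and 76.7 TPM. Its log2 fold change was −0.16 in males (SE 0.06, unadjusted p = 0.0282, adjusted p = 0.880), and without male cKO 3, at 76.7 TPM, it was −0.10, and without male cKO 1 −0.18. It was 0.05 in females, and the interaction was −0.21 (−0.41 to −0.02, adjusted p = 0.966).

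*Kif16b*, a kinesin-3 of early endosomes, had the largest interaction in size among the members, but a single library carried much of it. Female WT libraries were at 1.73, 0.626 and 0.550 TPM and female cKO libraries at 2.87, 3.17 and 3.10 TPM, while male WT libraries were at 1.31, 2.22 and 1.33 TPM. Male cKO libraries were at 2.84, 1.27 and 1.21e-08 TPM, the last being listed at practically 0. The interaction was −2.90 on the log2 scale (−5.85 to 0.05, unadjusted p = 0.0534, adjusted p = 0.966 in limma), and −1.46 without male cKO 3. It was −3.89 without the libraries of conflicting sex. With a pseudocount of 1 in place of 0.1 it was −1.42.

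**Figure D3:**
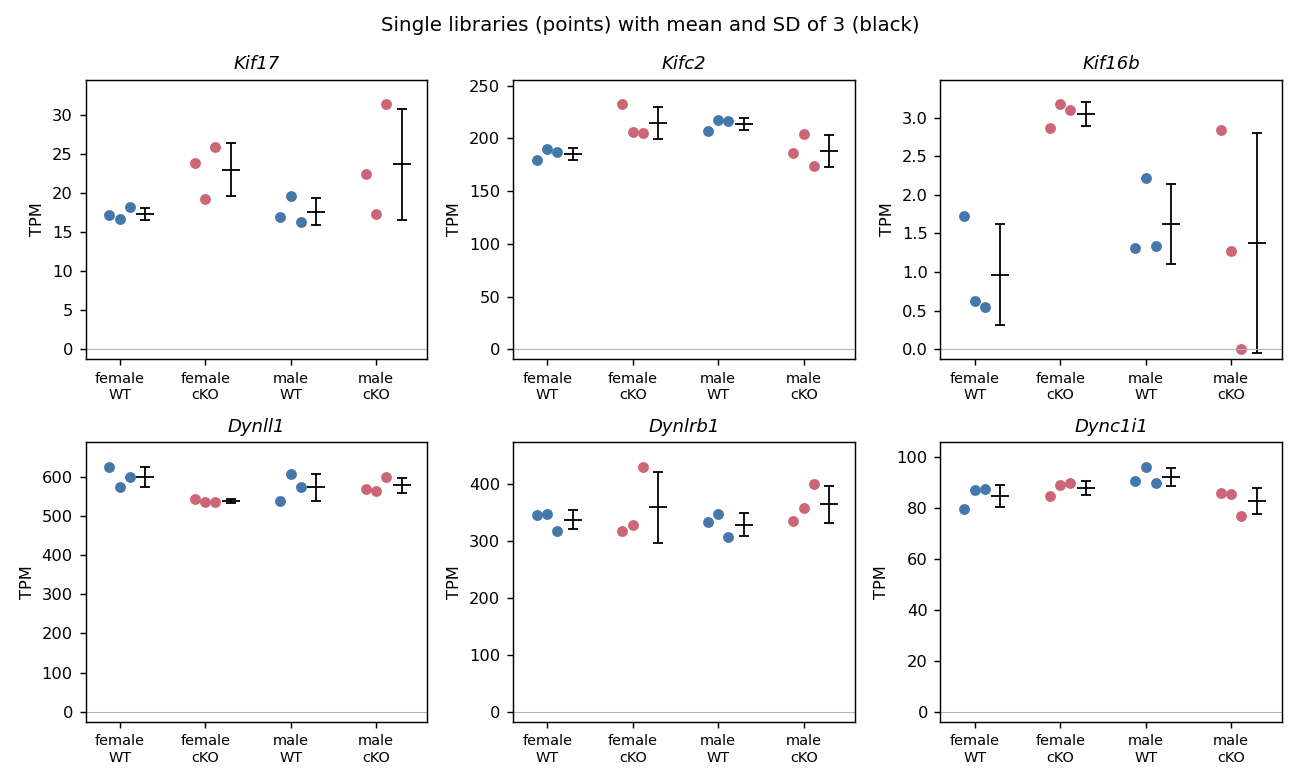
TPM of *Kif17*, *Kifc2*, *Kif16b*, *Dynll1*, *Dynlrb1* and *Dync1i1* in single libraries (points), with mean and SD of 3 libraries (black), by sex and genotype. By sex label, *Kifc2* cKO libraries lie above WT in females (206 to 232 against 179 to 190.0 TPM) and below WT in males (174 to 205 against 207 to 217 TPM). Male cKO 3 stands apart in *Kif17* and *Kif16b*.

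As classes, the abundant members did not lean to 1 side in females, with 14 of 26 above 0, and leaned below 0 in males, with 7 of 26 above 0, while 54.3% and 55.2% of all genes were above 0. The medians were 0.01 and −0.04, against 0.01 and 0.02 over all genes. The median size of these fold changes was 0.04 in females and 0.07 in males, beside a median standard error of 0.08. The mitotic kinesins had a median of 0.20 in females and −0.06 in males, and 11 of 13 had an interaction below 0, while 51.3% of all genes had one above 0. Proliferation markers took the other direction, with a median of −0.26 in females and 0.13 in males over 16 genes, and 0 of them were called in either sex or at an unadjusted p under 0.05. Without the libraries of conflicting sex the abundant members stood above 0 in 18 of 26 in females, against 56.7% of all genes, and in 9 of 26 in males, against 52.1%, with medians of 0.03 and −0.08. The mitotic kinesins then had medians of 0.13 and −0.18, with 9 of 13 interactions below 0, and the proliferation markers −0.19 and 0.25, with 0 called and 1 gene at an unadjusted p under 0.05 in each sex. In both sexes together the abundant members stood above 0 in 7 of 26, against 55.8% of all genes. Without the libraries of conflicting sex they did so in 13 of 26, against 56.5%.

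**Figure D4:**
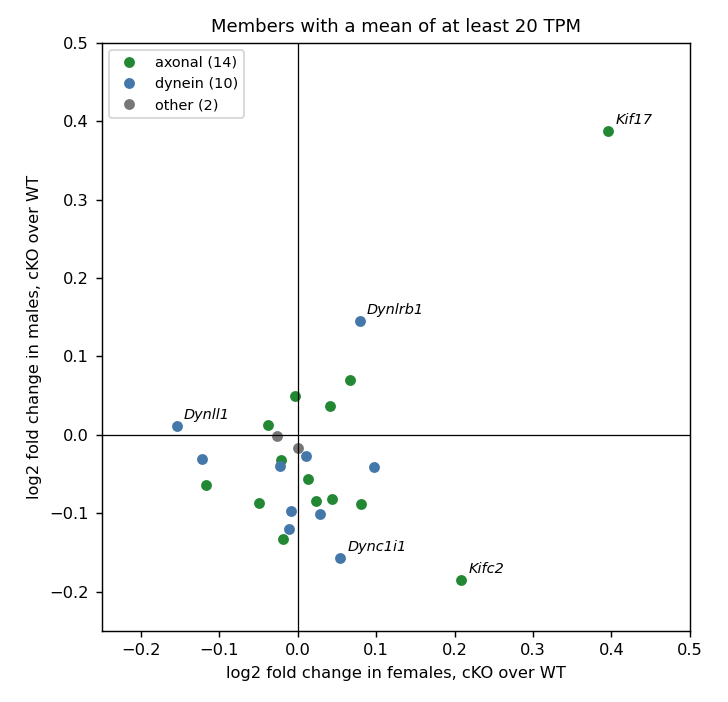
Log2 fold change in females (horizontal) and in males (vertical), cKO over WT, of the 26 members with a mean of at least 20 TPM, coloured by class. *Kif17* lies at 0.40 and 0.39, apart from the rest, *Kifc2* at 0.21 and −0.19, and most other members within 0.15 of 0 on both axes.

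In 3 members, chosen after their values were seen, the lowest libraries were also the lowest in markers of another cell type. *Dynlrb2*, a roadblock light chain of ciliated cells, was at 1.52 TPM in female cKO 1, 1.91 in male cKO 3, 2.04 in male WT 2 and 2.53 in male cKO 2, and at 3.41 TPM or more in the other libraries. The same 4 libraries had the lowest sums over 14 ependyma markers, at 28.7, 49.6, 35.7 and 58.5 TPM, against 71.3 TPM or more elsewhere. Its log2 fold change between genotypes was −0.37 (−1.20 to 0.46), beside a median of −0.26 for the ependyma markers, of which 12 of 14 were below 0 and 0 had an unadjusted p under 0.05. *Kif19a*, also of motile cilia, did not follow the same order, since its highest value, 5.21 TPM, was in male WT 2, and it was at 4.17 TPM in male cKO 2.

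*Kif13a*, a kinesin-3 of endosomes and receptors, was lowest in male WT 2 at 6.74 TPM and in male cKO 2 at 7.42 TPM, with 8.33 to 10.7 TPM in the other libraries. Those libraries also had the lowest sums over 9 oligodendrocyte markers, at 2452 and 2818 TPM, against 3087 to 5075 TPM. *Kif1c*, another kinesin-3, was lowest in male cKO 2, male WT 2 and male cKO 3, at 44.8, 45.9 and 46.7 TPM, and male cKO 3 had the third lowest oligodendrocyte sum. The log2 fold change of *Kif1c* was −0.09 (−0.24 to 0.06) and that of *Kif13a* 0.03 (−0.19 to 0.25), beside a median of −0.07 for the 9 oligodendrocyte markers. Every marker of both lists was above 0 in at least 1 library. The part of ependyma or oligodendrocytes in these values was not tested.

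**Figure D5:**
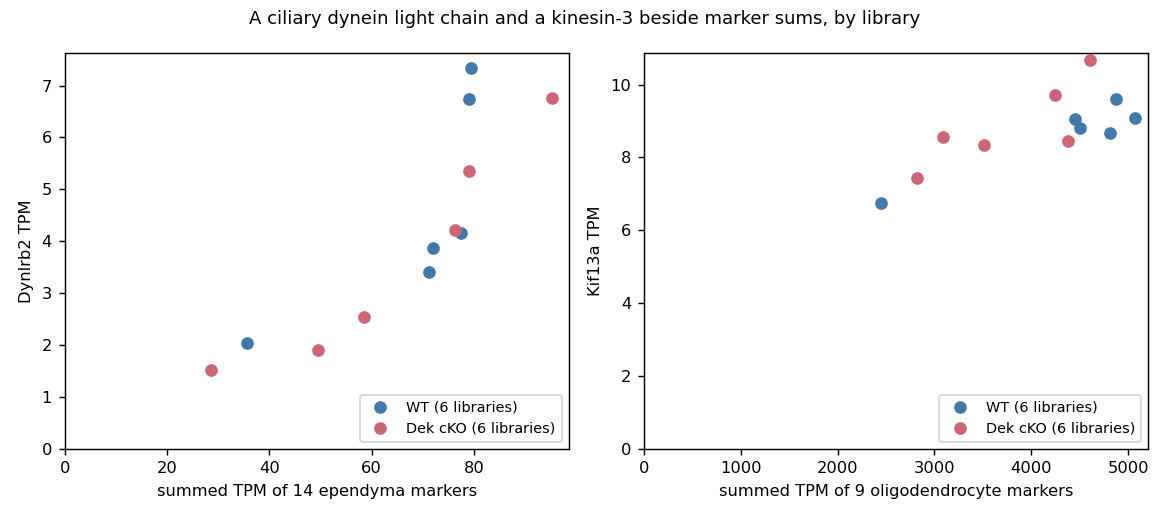
TPM of *Dynlrb2* against the summed TPM of 14 ependyma markers (left) and of *Kif13a* against the summed TPM of 9 oligodendrocyte markers (right) in 12 libraries. The 4 libraries with the lowest ependyma sums, 1 of them WT, are those with the lowest *Dynlrb2*, and the 2 with the lowest oligodendrocyte sums, 1 of each genotype, are those with the lowest *Kif13a*.

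No gene of the motors' partners was called either. Of 23 kinesin light chains and cargo adaptors 0 were called in both sexes together, with a median log2 fold change of 0.00 and 1 gene at an unadjusted p under 0.05, the light chain *Klc4* (10.6 ± 1.09 TPM in WT and 12.05 ± 0.648 TPM in cKO libraries, log2 fold change 0.19, adjusted p = 0.664 in limma). Of 29 tested dynactin subunits and dynein regulators 0 were called, with a median of 0.02 and 1 gene at an unadjusted p under 0.05, the lysosomal dynein adaptor *Rilp* (1.59 ± 0.770 and 2.51 ± 0.724 TPM, log2 fold change 0.70, adjusted p = 0.674). Of 21 tubulins and microtubule-associated proteins, the tracks on which the motors run, 0 were called and 0 reached an unadjusted p under 0.05, with a median of 0.00.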

How the data were processed

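The authors deposited 1 table of TPM with a column for each of the 12 libraries. Their processing notes name kallisto and mm10, while the paper's methods give poly-A selected stranded libraries, STAR alignment to GRCm38 and Salmon, and which tool wrote the table is not given in the sources used here. The paper's methods state a read depth per sample, but TPM holds no read counts, so no count test was run. Tests used log2(TPM + 0.1) of 18197 genes averaging 0.1 TPM or more, with limma 3.58.1 in R 4.3.3 (trended prior variance, two-sided, Benjamini-Hochberg over all genes tested). Genotypes were compared over 6 against 6 libraries without covariates, and within a sex and for the interaction in a joint fit of all 4 groups. The fitting script was tested on simulated data.

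Members, classes and lists were chosen with earlier results of these data known. Genes named are the most abundant of each class (6 axonal, 4 mitotic, 6 dynein, 2 other), the 8 with the lowest p in both sexes, the 3 with the lowest p within each sex and for the interaction, and the *Dynlt1* copies. Some others are marked as chosen after their values were seen. Single genes of the motors' partners were also named after their values were seen. Alternatives were other pseudocounts, filters, scalings and prior variance, a replicate block, sex as a covariate, a fit on 1 sex, CMV-named libraries only, and leaving out libraries. Sequences came from RefSeq promoters (GRCm38.p6) and GENCODE M21 transcripts. Python 3.11.15 was used for summaries.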

Additional observations from a re-analysis of the deposited data

Results flagged for a closer look

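A single library stood far from the other 5 of its genotype in 3 members, among 54 groups tested (27 named members in each genotype), and chance alone flags about 1 in 20 groups. *Kif20b* was at 0.186 TPM in female cKO 1, with the other cKO libraries at 0 to 0.0583 TPM. *Kif3a* was at 118 TPM in male WT 2, with the other WT libraries at 100.5 to 104 TPM. *Kifc3* was at 29.6 TPM in female WT 3, with the other WT libraries at 23.1 to 25.5 TPM. *Kifc2* had genotypes that separated in opposite directions in the sexes as labelled, with an interaction of −0.39 on the log2 scale whose adjusted p was 0.966 in limma. The separation in females depends on the label of male cKO 1, 1 of the 2 libraries of conflicting sex.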

How the results depend on the processing

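In all 88 repeats of the 4 comparisons under 24 alternative settings, limma called 0 members, and the lowest adjusted p of any fit was 0.162, for *Kif17* without male cKO 2. Between 0 and 9 members had an unadjusted p under 0.05, the 9 of 54 in the interaction without both libraries of conflicting sex (16.7%, against 8.8% of all genes in that fit and 3.64% of members with all libraries). None of 17 fold changes of named genes changed sign. Class medians moved with single libraries left out from −0.03 to 0.01 for axonal kinesins, −0.05 to 0.10 for mitotic kinesins, −0.06 to −0.03 for dynein subunits and −0.02 to 0.09 for others. Libraries with the same replicate number did not deviate together (correlations of −0.04 to 0.04), which gives no sign of a pairing but cannot exclude one. With the replicate number as a block *Kif17* had a log2 fold change of 0.39 and an adjusted p of 0.665 in limma, with 0 members called. *Kif15* ranged from 0.11 with a pseudocount of 1 to 0.78 without male WT 2, and *Kif19a* from −0.42 to −0.22. The lack of read counts limits the low members, and shared sequence limits the *Dynlt1* copies, *Kifc1* and *Kifc5b*.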

Other observations

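None of the motors' partners passed the adjusted threshold in limma within a sex or for the interaction. At an unadjusted p under 0.05 there were 3 of 21 tubulins and microtubule-associated proteins for the interaction (14.3%, against 4.23% of all genes) and 1 of 21 in females (4.76%, against 5.79%). Of 23 kinesin light chains and adaptors there were 2 in females (8.7%) and 1 for the interaction (4.35%), of 29 dynactin subunits and dynein regulators 1 for the interaction (3.45%), and none of the 3 lists had any in males. Without the libraries of conflicting sex the interaction gave 7 of 21 (33.3%), 3 of 23 (13%) and 2 of 29 (6.9%), against 8.8% of all genes, again with 0 called. Males then had 4 of 21 (19%), 2 of 23 (8.7%) and 1 of 29 (3.45%), against 8.86% of all genes. Females had 3 of 21 (14.3%), 2 of 23 (8.7%) and 0 of 29, against 8.56%, with 0 called in either sex. The kinesin light chain *Klc4* had a log2 fold change of 0.26 in females. *Trak1*, which links mitochondria to kinesin-1, had 0.18 in females and an interaction of −0.34 (adjusted p = 0.966). Among the tracks, the alpha-tubulin *Tuba4a* had 0.20 in females and an interaction of −0.30, the neuronal beta-tubulin *Tubb3* an interaction of −0.22 and the microtubule-binding protein *Dcx* of immature neurons an interaction of −0.57. Among dynactin subunits, *Dctn4* had an interaction of −0.20. No gene of the 3 lists had an adjusted p below 0.966 for the interaction in limma. The interactions of these single genes are from the fit of all 12 libraries as labelled, with the 2 of conflicting sex among them. They also rest on the female WT libraries, which carry the other name prefix.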
